A study of Arabidopsis thaliana with 9 samples.

Results

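Arabidopsis seedlings carrying extra BRI1, the receptor for brassinosteroid hormones, were compared with wild type seedlings over every measured locus, with 3 arrays of each genotype and 6 of the 9 arrays of the study. Per the labels, both genotypes are in the Col-0 background and were raised on MS medium in vitro, at 22 °C in days of 16 h light and 8 h dark. At growth stage 1.03 the vegetative part of the seedlings was taken for RNeasy extraction, and each array is a biological repeat. The genotype entry of the BRI1 line reads pBRI1::BRI1 and its source name reads 35S::BRI1, so whether the native promoter or a constitutive viral promoter drives the added copy cannot be told from the labels, and the plants are called the BRI1 line. The sources used here do not give the number of independent transformants behind the line, the plants pooled per array or their age in days. The other 3 arrays, labelled 35S::AVP1, are also Col-0 under the same growth conditions. They entered the main comparison through the model's estimate of the spread between repeats. In fits with further terms they also helped to set those terms, and in places their own levels and calls are given beside the line's. Levels are log2 values of 20777 loci, so a difference of 1 is a doubling, and a locus was called where limma's p-value, adjusted by Benjamini-Hochberg over all loci, was under 0.05.

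Brassinosteroids are plant steroid hormones that promote cell expansion and take part in cell division and photomorphogenesis. BRI1 is a receptor kinase at the cell surface. With hormone bound it pairs with co-receptors of the SERK family and signals through cytoplasmic kinases and a phosphatase, the GSK3-like kinase BIN2 is inactivated, and the transcription factors BZR1 and BES1 become active in the nucleus. Those factors are known to repress genes of hormone synthesis, a negative feedback, and to induce genes of cell wall loosening and growth.

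The extra BRI1 was plain on every array of the line. BRI1 (AT4G39400, chromosome 4) read 9.55, 9.58 and 9.51 in wild type replicates 1 to 3 and 12.18, 12.34 and 12.33 in those of the BRI1 line. The lowest array of the line lay far above the highest of wild type, and the line's 3 arrays were also close to each other. The difference of 2.73 (95% interval 2.57 to 2.90, SE 0.08, limma adjusted p = 7.75e-08) is a 6.66-fold rise. A two-sided exact permutation test gave p = 0.1, the smallest that 3 arrays against 3 allow. The table holds 1 value for the locus, so RNA of the added copy and of the native gene cannot be told apart.

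Few other loci moved past the threshold. The test called 17 of 20777 loci (0.0818%), of which 8 (0.0385%) rose and 9 (0.0433%) fell. An unadjusted p under 0.05 was found at 1102 loci (5.3%), and the groups did not overlap at 2103 (10.1%), with the line higher at 4.38% and lower at 5.75% of all loci. The called loci ranged in size from 0.43 to 3.84 on the log2 scale, and in wild type level from the 38.1 to the 96.1 percentile of the measured loci. Across all loci the median change was -0.01 and the median size of a change 0.06. The median half-width of a 95% interval was 0.20. The number of calls fell whichever array was left out, and each such fit also has fewer residual degrees of freedom. Leaving out wild type replicate 1, 2 or 3 gave 6, 3 or 9 calls, leaving out BRI1 line replicate 1, 2 or 3 gave 4, 5 or 3, and leaving out an array labelled 35S::AVP1 gave 10, 9 or 9. With only the 6 arrays of the comparison it was 3 higher and 4 lower.

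**Figure D1:**
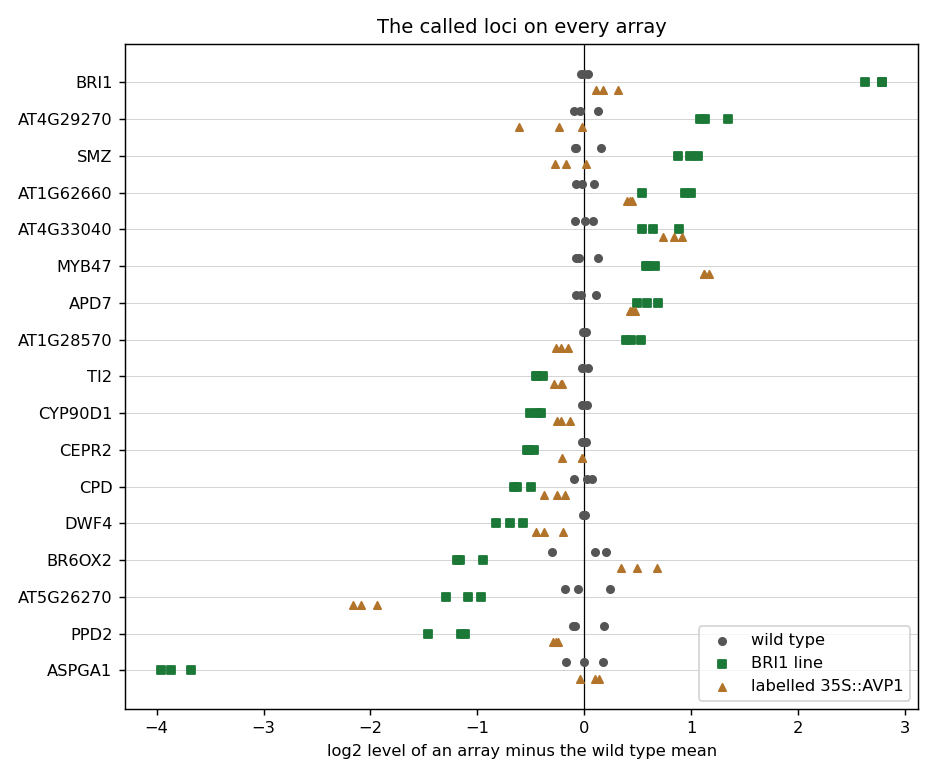
The 17 called loci on all 9 arrays, as the log2 level of each array minus the wild type mean of the locus; circles are wild type, squares the BRI1 line and triangles the arrays labelled 35S::AVP1. ASPGA1 (-3.84) and BRI1 (2.73) stand apart from the other loci, and at every locus shown the squares do not overlap the circles.

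Array medians of all 9 arrays lay between 6.34 and 6.42. Arrays correlated across loci, which are not independent replicates, at 0.990 to 0.996 within wild type, 0.994 to 0.997 within the BRI1 line and 0.990 to 0.997 between them. Of 16 measured photosynthesis genes 0 were called, their median change was 0.00, and their mean level was between 13.95 and 13.97 on the 6 arrays. The mean levels of 7 floral organ genes and 5 seed storage genes ran from 3.39 to 4.38 over the 6 arrays, against a 10th percentile of 3.71 to 3.79 on the arrays. Repeats of a genotype differed in clock genes: TOC1, a component of the central oscillator, read 7.59, 8.56 and 9.46 in wild type and 7.48, 9.16 and 8.60 in the BRI1 line, and the morning gene CCA1 read 8.09, 6.86 and 4.88 against 7.72, 5.37 and 6.51. Wild type replicate 1 was also high in touch and rapid stress genes, described further on.

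With all 9 arrays in the model, 4 of the 7 measured genes of brassinosteroid synthesis were called lower in the line, against 0.0433% of all loci. All 4 are cytochrome P450 genes of the later, steroid-specific steps. As the arrays measure whole shoots, fewer cells that express a gene and less RNA per cell cannot be told apart here or below. DWF4 (AT3G50660), which catalyses a rate-limiting hydroxylation of the side chain, read 8.00, 8.01 and 7.99 in wild type and 7.43, 7.31 and 7.17 in the BRI1 line. The wild type arrays were nearly identical and all lay above the line's. The change was -0.70 (SE 0.09, limma adjusted p = 0.0288). BR6OX2 (AT3G30180), whose enzyme makes castasterone and then brassinolide, read 7.71, 8.22 and 8.12 against 7.07, 6.85 and 6.83. This was the largest change of the list, -1.10 (SE 0.14, limma adjusted p = 0.0288), although wild type replicate 1 was lower than the other wild type arrays. CPD (AT5G05690), another P450 of the pathway, read 10.70, 10.76 and 10.58 against 10.18, 10.05 and 10.03 (-0.59, SE 0.08, limma adjusted p = 0.0409). CYP90D1 (AT3G13730), which hydroxylates the side chain, read 5.51, 5.52 and 5.56 against 5.02, 5.10 and 5.13 (-0.45, SE 0.06, limma adjusted p = 0.0486). In all 4 the gap between the groups was wider than the range within either. With only the 6 arrays of the comparison none of the 4 passed (limma adjusted p = 0.0763 for DWF4, 0.110 for BR6OX2, 0.131 for CPD and 0.170 for CYP90D1). CPD and CYP90D1 also failed after quantile normalization (0.0594 and 0.0591), and CYP90D1 after median centring (0.0942), with the replicate number as a block (0.0532) and with a variance trend (0.123). Without single arrays, BR6OX2 passed in 3 of 9 fits, DWF4 in 2, and CPD and CYP90D1 in 0.

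The remaining synthesis genes were not called. ROT3, which shares its reaction with CYP90D1, read 5.67, 5.23 and 5.07 in wild type and 5.18, 4.73 and 5.01 in the line, so that the groups overlapped (-0.35, 95% interval -0.73 to 0.03). BR6OX1, the close relative of BR6OX2, changed by -0.11 (95% interval -0.37 to 0.14) at levels of 3.90 to 4.31, near the bottom of the scale. The steroid reductase gene DET2 changed by 0.04 (95% interval -0.14 to 0.23). The median change of the 7 genes was -0.45, against -0.01 over all loci. Upstream, among 13 genes of sterol synthesis, which supplies the precursor campesterol, 0 were called, 9 changes were negative and the median was -0.10, or -0.05 without BRI1 line replicate 1. The lowest p-values there were those of SMO2-2 (-0.26, adjusted p = 0.636) and STE1 (-0.22, adjusted p = 0.824), which act on sterol methyl groups and on a ring double bond.

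Genes that inactivate brassinosteroids read higher in the line without passing the threshold. All 4 measured members had positive changes, with a median of 0.21, and 0 were called. BAS1 (AT2G26710), a P450 that hydroxylates active hormone to an inactive form, read 6.65, 6.47 and 6.14 in wild type and 7.36, 7.38 and 7.06 in the line. The groups did not overlap, as at 10.1% of all loci, and the change was 0.85 (SE 0.15, limma adjusted p = 0.121). The reductase gene BEN1 changed by 0.20 (adjusted p = 0.847), SOB7, a P450 related to BAS1, by 0.22 (adjusted p = 0.956), and the acyltransferase gene DRL1 by 0.11 (adjusted p = 0.991).

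The signalling genes downstream of BRI1 held 0 calls among 8 genes of receptors, co-receptors and the receptor inhibitor BKI1, 0 among 11 genes of kinases and phosphatases, and 0 among 6 transcription factor genes. The receptor paralogs read BRL1 -0.09, BRL2 0.16 and BRL3 -0.22, and the co-receptor BAK1 changed by -0.04 (95% interval -0.26 to 0.17). BIN2, the GSK3-like kinase that restrains the pathway, changed by 0.03, and the phosphatase gene BSU1 by 0.06 (95% interval -0.15 to 0.27). PP2AB'ALPHA, a regulatory subunit of the phosphatase that activates BZR1, read 8.34, 8.12 and 8.12 in wild type and 8.02, 8.07 and 7.81 in the line (-0.23, adjusted p = 0.950). The transcription factor BEH2 (AT4G36780), a homolog of BZR1 and BES1, came closest to a call: it read 7.19, 7.08 and 7.14 in wild type and 6.78, 6.68 and 6.69 in the line, with no overlap (-0.42, SE 0.06, limma adjusted p = 0.0626). Its relatives BEH1, BEH3 and BEH4 changed by -0.18, -0.01 and 0.03. BZR1 and BES1 themselves had no value of their own among the measured loci, nor did BIM3, BSL2 and BSL3 of these lists. The median of each of the 3 groups was -0.06. It was -0.01 for the kinases and phosphatases without wild type replicate 3, and 0.00 for the transcription factors without wild type replicate 1.

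**Figure D2:**
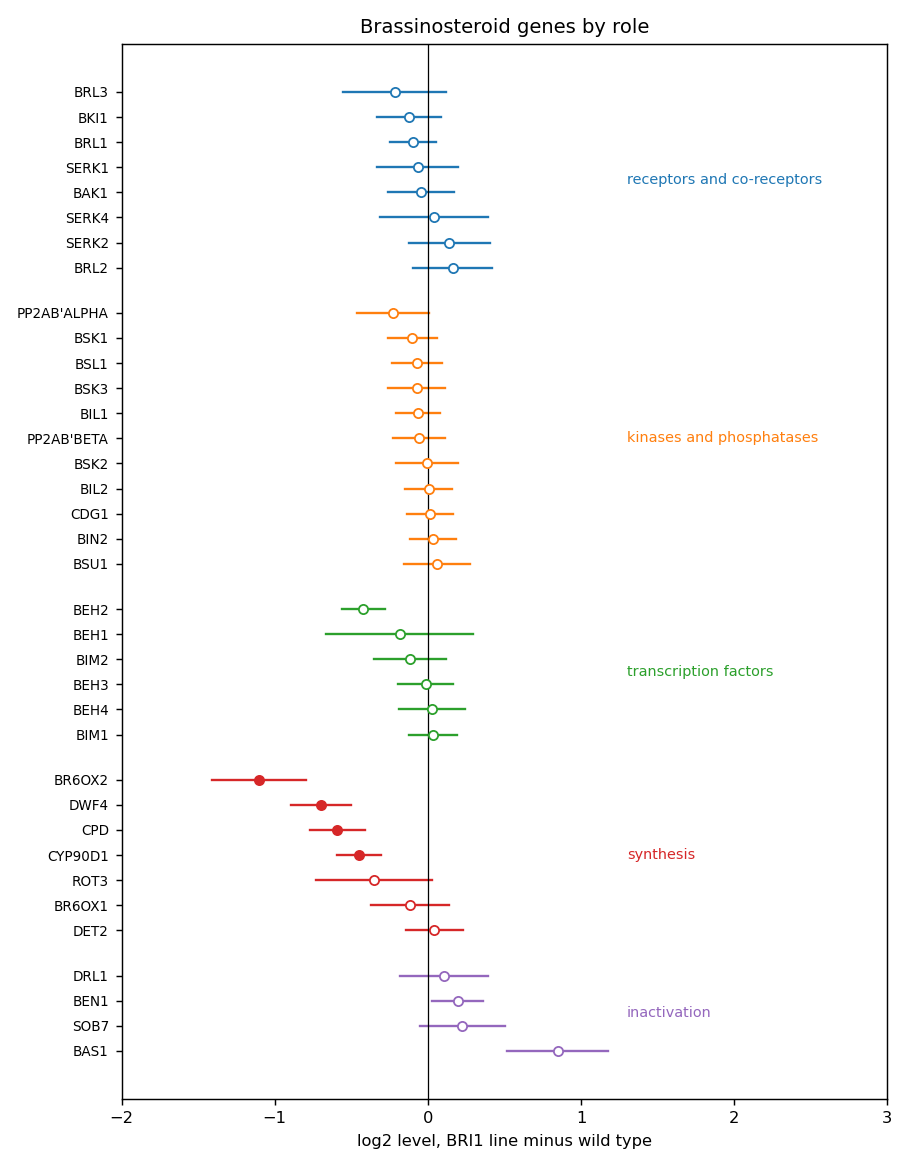
Change in the BRI1 line of every measured gene of brassinosteroid signalling, synthesis and inactivation, as the log2 level of the line minus wild type, with 95% intervals from the limma model; filled circles are called loci. The filled circles are BR6OX2, DWF4, CPD and CYP90D1, all left of 0, and the 4 inactivation genes all lie right of 0.

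Genes known from the literature to be induced by brassinosteroid did not move as a block. Of 20 measured, 0 were called, 10 changes were positive and 10 negative, and the median was 0.01, or -0.03 without wild type replicate 3 and 0.08 without wild type replicate 2. At an unadjusted p under 0.05, 6 were higher and 0 lower, against 2.32% and 2.98% of all loci. XTH19 (AT4G30290), a xyloglucan endotransglucosylase that remodels the cell wall, had the largest positive change of the list: it read 5.19, 4.66 and 4.06 in wild type and 6.56, 5.69 and 5.84 in the line. The groups did not overlap, but wild type alone spanned over a doubling, and the change of 1.39 (SE 0.31) had a limma adjusted p of 0.305. SAUR15, a small auxin-induced growth gene, read 6.94, 7.01 and 7.02 against 7.62, 7.28 and 7.63 (0.52, adjusted p = 0.354). BEE1, a helix-loop-helix factor, read 5.52, 5.67 and 5.35 against 6.37, 5.87 and 6.23 (0.64, adjusted p = 0.543), and the expansin gene EXPA8 changed by 0.40 (adjusted p = 0.636). TCH4, which is touch-induced as well as brassinosteroid-induced, read 10.67, 9.09 and 7.34 against 8.13, 7.62 and 7.13, and its spread within wild type exceeded the difference between the groups. Among 5 transcription factor genes known to be repressed by brassinosteroid, all 5 changes were negative with 0 called and a median of -0.13, which was -0.42 without wild type replicate 3. The largest was that of MYBL2, a repressor of anthocyanin synthesis (-0.60, adjusted p = 0.950), and its groups overlapped.

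The locus with the largest change in the comparison was not a brassinosteroid gene. ASPGA1 (AT5G08100, chromosome 5), an asparaginase that releases ammonium from asparagine, read 8.37, 8.54 and 8.72 in wild type and 4.58, 4.86 and 4.68 in the BRI1 line. The change of -3.84 (95% interval -4.07 to -3.60, SE 0.10, limma adjusted p = 7.75e-08) is a 14.3-fold fall, from the 81.8 to the 30.5 percentile of the measured loci. The arrays labelled 35S::AVP1 read 8.50 to 8.68, within the range of wild type. Of 18 other genes of asparagine, glutamine and aspartate metabolism 0 were called, 0 had an unadjusted p under 0.05, and changes ran from -0.19 (GDH2, a glutamate dehydrogenase gene) to 0.12 (GLN1;1, a glutamine synthetase gene). The nearest measured loci on either side of ASPGA1 changed by 0.07 and -0.16.

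PPD2 (AT4G14720, chromosome 4), a TIFY-family repressor that limits the division of stomatal precursor cells and so leaf size, was the third of the called loci by p-value. It read 7.35, 7.06 and 7.07 in wild type and 6.05, 5.70 and 6.01 in the line. The groups were separated by over a doubling, and the change was -1.24 (SE 0.11, limma adjusted p = 0.00328). PPD2, ASPGA1 and BRI1 were the 3 loci that passed in all 9 fits without 1 array. The arrays labelled 35S::AVP1 read 6.87 to 6.92 (-0.27, adjusted p = 0.164). Of 8 measured genes whose proteins act with PPD2 or lie under its control, 0 were called, with changes from -0.15 (JAZ3) to 0.11 (the D-type cyclin gene CYCD3;3). PPD1 and KIX9, also in this list, had no value of their own among the measured loci. SAP, the F-box protein that targets PPD proteins for degradation, changed by 0.09 (95% interval -0.15 to 0.32). Among 25 other genes of leaf size 0 were called and 0 had an unadjusted p under 0.05, with DA1, which restricts organ size, at -0.15 and GRF3, a growth-regulating factor, at 0.24 (adjusted p = 0.950 for both). Among 12 genes of the stomatal lineage 0 were called, and their median change was 0.05, or -0.01 with wild type replicate 3 left out and 0.11 with BRI1 line replicate 2 left out.

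SMZ (AT3G54990), an AP2-like repressor of flowering, rose in the line. It read 5.85, 5.60 and 5.61 in wild type and 6.56, 6.68 and 6.76 in the line, with no overlap (0.98, SE 0.10, limma adjusted p = 0.0100). It passed in 6 of the 9 fits without 1 array. Of 23 other flowering genes 0 were called, 12 changes were positive and the median was 0.01, or -0.02 without wild type replicate 2 and 0.06 without wild type replicate 1. Its relatives TOE1 (0.24) and TOE2 (0.23) had non-overlapping groups and adjusted p = 0.920 and 0.926. Groups did not overlap at 2 of the 23 genes, against 10.1% of all loci. SPL3, which promotes the adult and floral phase, read -0.38 with overlapping groups (adjusted p = 0.821).

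Among the other loci that rose, MYB47 (AT1G18710), a MYB transcription factor gene, read 5.98, 6.01 and 6.18 in wild type and 6.73, 6.64 and 6.65 in the line (0.61, SE 0.07, limma adjusted p = 0.0220). APD7 (AT5G02760), a phosphatase gene of PP2C clade D, read 9.75, 9.89 and 9.70 against 10.48, 10.28 and 10.37 (0.59, SE 0.08, limma adjusted p = 0.0305). Both showed gaps between the groups wider than the range within either. AT4G29270 (1.19), AT1G62660 (0.83), AT4G33040 (0.69) and AT1G28570 (0.45), for which no symbol was found, also rose. AT4G29270 read 6.40, 6.18 and 6.23 in wild type and 7.35, 7.40 and 7.62 in the line, whereas the arrays labelled 35S::AVP1 read 5.65 to 6.24. Without single arrays MYB47 passed in 4 of 9 fits, AT4G29270 in 3, AT1G62660 in 1 and APD7, AT4G33040 and AT1G28570 in 0. With only the 6 arrays of the comparison MYB47 (limma adjusted p = 0.110), APD7 (0.150), AT1G62660 (0.176), AT4G33040 (0.170) and AT1G28570 (0.170) failed. APD7 and AT1G28570 also failed with the replicate number as a block (0.0517 and 0.0866), and AT4G33040 and AT1G28570 with a variance trend (0.0639 and 0.123).

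The other loci that fell were AT5G26270, CEPR2 and TI2. AT5G26270 read 7.47, 7.89 and 7.59 in wild type and 6.57, 6.36 and 6.69 in the line (-1.11, SE 0.12, limma adjusted p = 0.0157), and passed in 5 of 9 fits without 1 array but not with only the 6 arrays of the comparison (adjusted p = 0.0763). Its neighbours on chromosome 5, AT5G26260 and AT5G26280, had changes of the opposite sign, 0.46 and 0.74, that were not called. CEPR2 (AT1G72180), a receptor kinase of C-terminally encoded peptides, read 9.53, 9.56 and 9.56 against 9.03, 9.02 and 9.08 (-0.51, SE 0.07, limma adjusted p = 0.0409). The trypsin inhibitor gene TI2 (AT2G43520) read 6.92, 6.86 and 6.87 against 6.44, 6.43 and 6.50 (-0.43, SE 0.06, limma adjusted p = 0.0486), the smallest change that was called. CEPR2 and TI2 had ranges within each group under 0.1, and they passed in 1 and 0 of the 9 fits. Both failed after median centring (limma adjusted p = 0.0638 for CEPR2 and 0.0676 for TI2), after quantile normalization (0.0594 for both), with the replicate number as a block (0.0620 and 0.0814) and with only the 6 arrays (0.101 and 0.170), and TI2 also failed with a variance trend (0.123). Over the 17 called loci, 0 of the 34 nearest measured neighbours were called. Of these neighbours 6 (17.6%) had an unadjusted p under 0.05, against 5.3% of all loci. The changes of the 34 neighbours ran from -0.30 to 0.74.

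At 9 loci the adjusted p lay between 0.05 and 0.1 with groups that did not overlap, and these were not called. Higher were GA3OX1 (0.77, limma adjusted p = 0.0745), which makes bioactive gibberellin, AFP3 (0.86), a binding partner of the abscisic acid factor ABI5, MEB1 (0.52) and PYK10 (0.68), a membrane protein and a beta-glucosidase of the endoplasmic reticulum bodies, and AT3G26960 (1.05). Lower were BEH2, EXLA1 (-0.77, limma adjusted p = 0.0832), an expansin-like gene, the P450 gene CYP71B22 (-0.48) and AT3G05730 (-0.78). GA3OX1 read 7.11, 7.11 and 6.66 in wild type and 7.66, 7.84 and 7.69 in the line. PYK10 read 10.88, 11.05 and 10.85 against 11.57, 11.39 and 11.85. On the arrays labelled 35S::AVP1, against the same wild type arrays, MEB1 (0.53), PYK10 (0.86) and EXLA1 (1.11) were called higher. EXLA1 thus moved there in the opposite direction to the BRI1 line, and CYP71B22 (-0.31) was called lower. PYK10 is most abundant in roots and is itself a member of the list of 8 root genes. With PYK10 included, this list had a mean level of 5.39 to 5.45 in wild type and 5.53 to 5.64 in the line. It held 0 called loci and 6 positive changes, and its median was 0.12. The part of carried-over root tissue in the PYK10 difference was not tested.

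Changes in the lists of cell wall genes were mixed. These lists include EXLA1, XTH19 and TCH4, described above. Of 15 expansin genes, whose proteins loosen walls during growth, 0 were called, 11 changes were positive and the median was 0.22, which was 0.13 without BRI1 line replicate 1 or 3. At an unadjusted p under 0.05, 4 were higher and 1, EXLA1, was lower, against 2.32% and 2.98% of all loci. EXPA3 read 9.12, 9.17 and 9.27 in wild type and 9.60, 9.30 and 9.53 in the line (0.29, adjusted p = 0.639), and EXPA11 changed by 0.25 (adjusted p = 0.644). Of 23 xyloglucan endotransglucosylase genes 0 were called, with XTH31 at 9.79, 9.82 and 9.76 against 10.49, 10.27 and 10.21 (0.54, limma adjusted p = 0.111) and XTH24 at -0.50 (adjusted p = 0.670). Both of these had non-overlapping groups, in opposite directions, as at 5 of the 23 genes and at 10.1% of all loci. The median of the list was 0.01. Of 11 cellulose synthase genes 0 were called and 8 changes were positive, with CESA5, of the primary wall, at 0.18 (adjusted p = 0.936).

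Cell cycle genes had changes that were nearly all negative, with small medians. Of 10 genes of S phase all 10 changes were negative, 0 were called and the median was -0.16, which was -0.06 without wild type replicate 2 and -0.22 without wild type replicate 1. CDC6, which licenses replication origins, read 6.11, 6.14 and 5.91 in wild type and 5.32, 5.65 and 5.40 in the line (-0.60, limma adjusted p = 0.112). Of 14 mitotic genes 13 changes were negative, 0 were called and the median was -0.10, which was -0.21 without wild type replicate 3 and -0.05 without wild type replicate 1. CYCB1;1, the mitotic cyclin often used as a marker of dividing cells, read 6.18, 6.33 and 6.01 against 5.99, 5.82 and 5.86 (-0.28, adjusted p = 0.689). Of 9 endocycle genes 0 were called and 7 changes were negative. At an unadjusted p under 0.05, 2 S phase, 3 mitotic and 2 endocycle genes were lower and 0 higher, against 2.98% and 2.32% of all loci. Over all loci 46.7% of changes were positive.

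**Figure D3:**
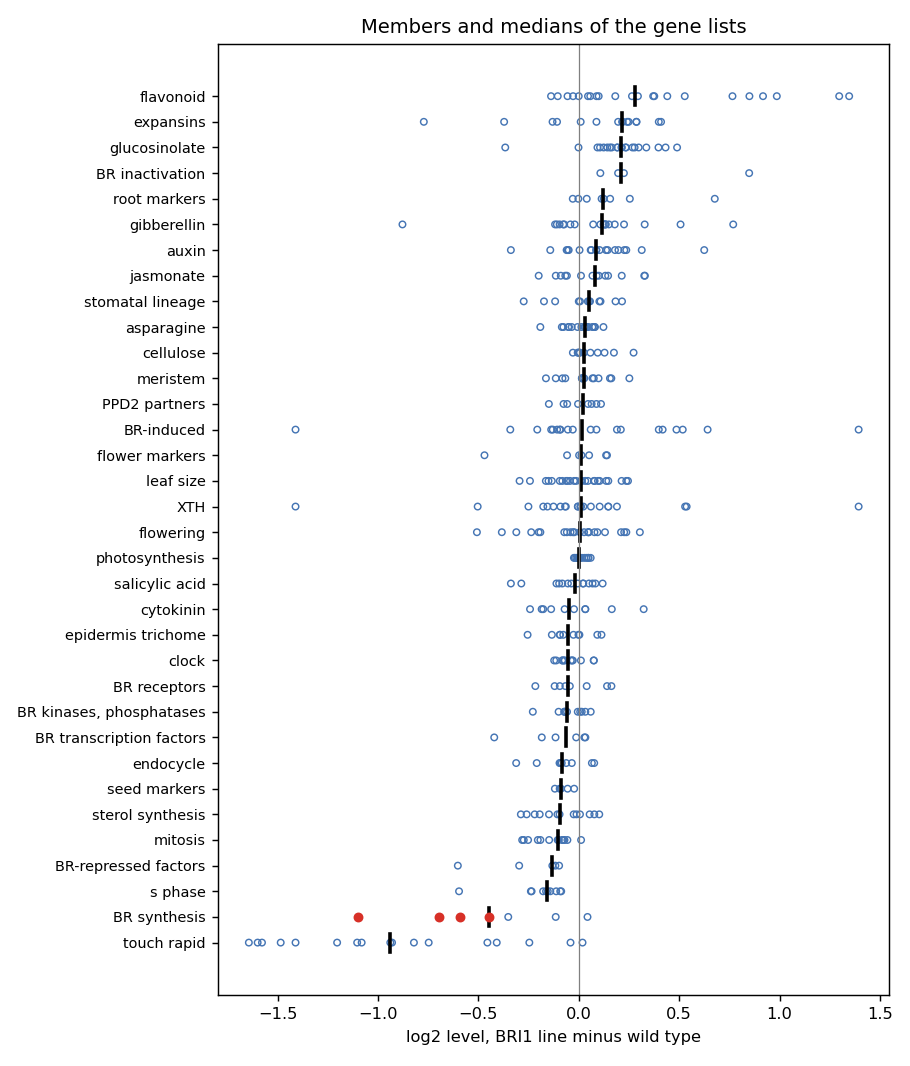
Members of the 34 gene lists as open circles at their log2 change, BRI1 line minus wild type, with the list median as a black bar and called loci as filled circles. The called loci among members are the 4 of brassinosteroid synthesis; the lowest median is that of touch and rapid stress genes (-0.94) and the highest that of flavonoid genes (0.28).

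Flavonoid genes lay mostly on the positive side, with a wide spread between repeats. Of 22 measured, 0 were called, 17 changes were positive and the median was 0.28, or 0.14 without wild type replicate 3. An unadjusted p under 0.05 was found at 9 higher and 0 lower genes, against 2.32% and 2.98% of all loci. UF3GT, a glycosyltransferase of anthocyanins, read 6.05, 5.96 and 5.59 in wild type and 7.06, 6.44 and 7.07 in the line (0.99, limma adjusted p = 0.175). PAP1, the MYB activator of anthocyanin synthesis, read 4.41, 4.30 and 4.06 against 5.22, 4.78 and 5.53 (0.92, limma adjusted p = 0.175). TT19, a glutathione transferase needed for anthocyanin to reach the vacuole, read 7.04, 6.37 and 5.20 against 7.75, 7.04 and 7.87. DFR, which makes the anthocyanin precursors, read 6.78, 5.87 and 5.37 against 7.87, 6.47 and 7.57. TT19 and DFR overlapped between the groups, and in all 4 genes wild type replicate 3 was the lowest wild type array and BRI1 line replicate 2 the lowest of the line. These were the arrays with the highest TOC1 of their genotype. The part of the clock in these values was not tested beyond the fit with TOC1 given further on. Of 21 glucosinolate genes 19 changes were positive with 0 called, and the median of 0.21 ran from 0.13 without BRI1 line replicate 1 to 0.38 without BRI1 line replicate 2. The indole glucosinolate genes CYP79B2 (0.40, adjusted p = 0.847) and MYB51 (-0.37, adjusted p = 0.936) were the lowest by p-value and of opposite sign.

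Hormone pathways other than brassinosteroid held 0 called members. Of 20 gibberellin genes 12 changes were positive and the median was 0.12, or 0.04 without BRI1 line replicate 3. Next to GA3OX1, the synthesis gene GA20OX1 read 5.58, 5.55 and 5.33 in wild type and 5.94, 6.11 and 5.93 in the line (0.51, adjusted p = 0.490), and the gibberellin-regulated peptide gene GASA1 read 9.20, 9.01 and 9.07 against 8.63, 8.07 and 7.93 (-0.88, adjusted p = 0.466). Both had groups that did not overlap, as at 7 of the 20 genes and at 10.1% of all loci. Of 19 auxin genes 14 changes were positive with a median of 0.09, which was 0.02 without BRI1 line replicate 1 and 0.17 without BRI1 line replicate 2, and IAA17, an AUX/IAA repressor, read 8.64, 8.56 and 8.10 against 9.26, 8.81 and 9.11 (0.62, adjusted p = 0.484). The medians were -0.05 over 10 cytokinin response regulators, 0.08 over 14 jasmonate genes and -0.02 over 14 salicylic acid genes. Without 1 array the cytokinin median ran from -0.13 (BRI1 line replicate 1 left out) to 0.02 (BRI1 line replicate 2), and the jasmonate median from -0.02 (BRI1 line replicate 3) to 0.17 (BRI1 line replicate 1). The salicylic acid median was -0.07 without wild type replicate 3. The largest member changes by p-value there were ARR16 at 0.32 (adjusted p = 0.822), OPR3, an enzyme of jasmonate synthesis, at 0.33 (adjusted p = 0.926) and SAG101 at -0.34 (adjusted p = 0.950).

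Size alone did not lead to a call. Of 40 loci with a change of at least 1 on the log2 scale, 9 higher and 31 lower, 6 were called. Of the 27 lower loci of this size that were not called, 25 had their highest value in wild type replicate 1. Their median range was 2.73 within wild type and 0.34 within the line, against 0.198 and 0.175 over all loci. Touch and rapid stress genes showed this most: of 17, 16 changes were negative and 0 were called. An unadjusted p under 0.05 was found at 6 lower genes, against 2.98% of all loci. Their median was -0.94, or -0.31 without wild type replicate 1 and -1.49 without wild type replicate 3. The calmodulin-like gene TCH3 read 10.49, 9.06 and 7.99 in wild type and 7.74, 7.40 and 7.60 in the line (-1.60, adjusted p = 0.797). The zinc finger gene ZAT10 read 8.41, 6.40 and 4.67 against 4.94, 4.87 and 4.74, so that wild type replicate 3 lay below the line and wild type replicate 1 far above it. The mean level of the 17 genes ran from 5.82 to 8.00 in wild type, 5.85 to 5.95 in the line and 5.81 to 6.34 on the arrays labelled 35S::AVP1.

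**Figure D4:**
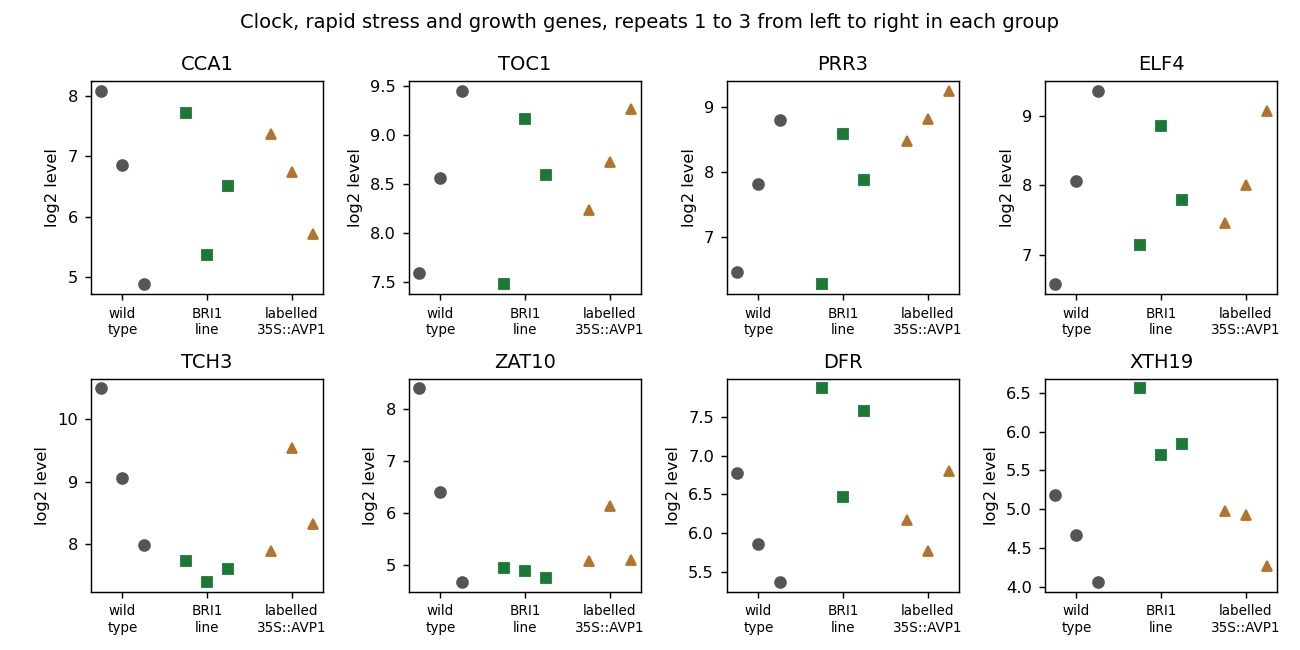
Log2 levels on each of the 9 arrays of 4 clock genes (CCA1, TOC1, PRR3, ELF4), the touch and stress genes TCH3 and ZAT10, the anthocyanin gene DFR and the cell wall gene XTH19, with replicates 1 to 3 from left to right in each genotype. The clock genes differ as much within a genotype as between genotypes, TCH3 and ZAT10 are highest in wild type replicate 1, and XTH19 is higher on all BRI1 line arrays than on any other.

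Of 12 clock genes 0 were called, the median change was -0.05, and the groups overlapped at all 12. That median became -0.26 with wild type replicate 1 left out and 0.16 with BRI1 line replicate 1 left out. PRR3 read 6.47, 7.82 and 8.80 in wild type and 6.28, 8.59 and 7.88 in the line, and ELF4 read 6.57, 8.06 and 9.37 against 7.13, 8.86 and 7.79. As an alternative chosen after seeing these values, the level of TOC1 on each array was added to the model. This fit called 71 of 20776 loci (0.342%), 33 higher (0.159%) and 38 lower (0.183%). All 17 loci called before were among them, and 54 were added. The total fell to 11, 22 and 28 without wild type replicates 1, 2 and 3 and to 22 and 17 without BRI1 line replicates 1 and 3, and was 51 without BRI1 line replicate 2 and 54, 68 and 76 without those labelled 35S::AVP1. With CCA1 in place of TOC1, 60 of the 71 passed, among them 43 of the 54 added. Within wild type and within the BRI1 line CCA1 ranks the arrays in the opposite order to TOC1, so it is not a separate check.

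With TOC1 in the model, 8 loci passed in all 9 fits without 1 array: ASPGA1, BRI1, PPD2, SMZ, AT5G26270, XTH19, SAG29 and PYL5, of which the last 2 were chosen after their values were seen. XTH19 had a change of 1.32 (SE 0.09, limma adjusted p = 0.000226), against 1.39 (SE 0.31) without the covariate. Other members of the gene lists that passed in this fit and not in the first were BAS1 (0.83, limma adjusted p = 0.0292), BEH2 (-0.43), MYBL2 (-0.67), XTH31 (0.53), XTH7 (0.51), EXLA1 (-0.76), GA3OX1 (0.76), IAA17 (0.59), UF3GT (0.96), PAP1 (0.89), CDC6 (-0.60) and PYK10 (0.67). Each of these 12 failed in some of the fits without 1 array, where BAS1 passed in 3 of 9 and PYK10 and CDC6 in 1.

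**Figure D5:**
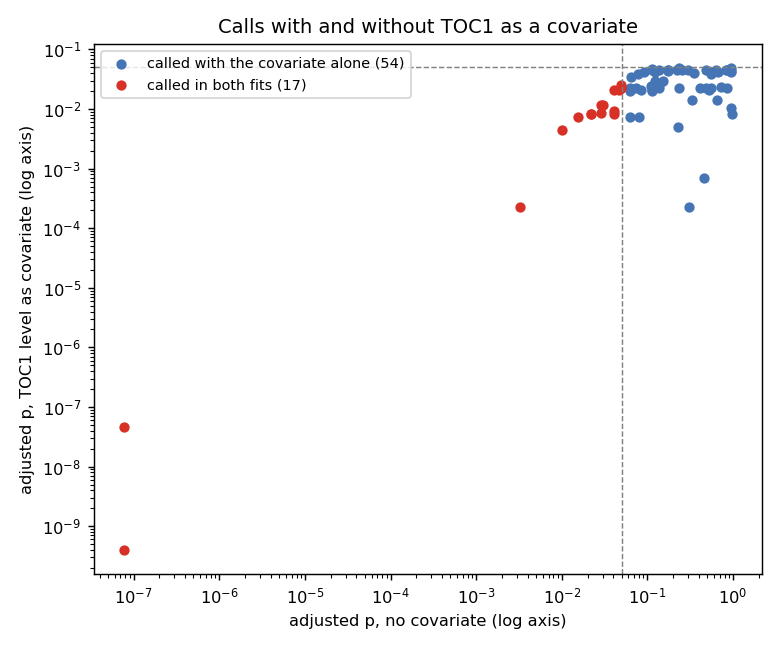
Adjusted p-values of the 71 loci called with TOC1 in the model, without the covariate on the horizontal and with it on the vertical axis, both logarithmic; dashed lines mark 0.05. The 17 loci called in both fits lie left of the vertical line and the 54 called with the covariate alone lie right of it.

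The called loci were also read on the arrays labelled 35S::AVP1, which share the wild type arrays with this comparison, so the values are given side by side only. Against wild type, 2300 loci (11.1%) were called there. Of the 7 loci higher in the BRI1 line besides BRI1, 4 were also called higher there, among them MYB47 (1.14) and AT4G33040 (0.83). Of the 9 lower loci, AT5G26270 (-2.06), DWF4 (-0.34) and TI2 (-0.24) were called lower and BR6OX2 was called higher (0.51). The other 5, ASPGA1, PPD2, CPD, CYP90D1 and CEPR2, were not called. CPD (-0.27, limma adjusted p = 0.0599) and CYP90D1 (-0.20, limma adjusted p = 0.0774) came closest, also on the lower side. ASPGA1, PPD2 and CEPR2 changed by 0.07, -0.27 and -0.08. BRI1 itself changed by 0.20 there (adjusted p = 0.132).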

How the data were processed

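Transcript levels were read from 9 ATH1 arrays in 3 genotypes. The deposited values are log2 levels, 1 per locus and array, which the authors computed by RMA, per the submitters' processing notes. The sources used here do not give its version, the probe map or which arrays were normalized together. Precision is limited by the number of arrays. With limma 3.58.1 in R 4.3.3, lmFit and eBayes were run over 20777 loci on 9 arrays with a mean for each genotype (6 residual and 3.94 prior degrees of freedom). Loci were called at a Benjamini-Hochberg adjusted p-value, over all loci, under 0.05. Intervals are 95% intervals of the model. Symbols came from a TAIR10.1 gene table, which held 20508 of the loci, and neighbours are by its gene order.

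The text names BRI1, every called locus, loci with an adjusted p up to 0.1 and no overlap, up to 4 members of each list with the lowest p, and the nearest neighbours of called loci. The remaining names (further members of brassinosteroid, touch and clock lists, PRR3, ELF4, ZAT10, TCH4 and those in the fit with TOC1) were chosen after their values were seen. The comparison and the 34 gene lists (491 entries, 451 measured) were chosen with earlier results of these data known, and the lists are described by counts and medians without a test. The labels do not say that replicate numbers mark shared batches. Deviations from the group mean correlated at 0.48, 0.02 and 0.02 in the 3 array pairs with the same number. In pairs with different numbers they correlated at -0.50 to 0.49, so arrays were not paired. Alternatives were other sample sets, normalizations, filters, variance priors, weights and covariates, and leaving out each array. A planned search for promoter motifs was not run.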

Additional observations from a re-analysis of the deposited data

How the results depend on the processing

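BRI1 was called under every alternative run, at 2.71 to 2.79. The counts of called loci (8 higher, 9 lower) were less stable. They were 3 and 4 with only 6 arrays, 13 and 15 with array weights, 9 and 5 after quantile normalization, and 33 and 38 with TOC1 or 38 and 30 with CCA1 as a covariate. Without 1 array they ran from 1 to 4 higher and from 2 to 6 lower, and with TOC1 as a covariate from 5 to 38 and from 6 to 38. The fit with the replicate number as a block (replicate block) gave 11 higher and 12 lower, with 5 of the 16 other called loci not passing. Of those 16, 12 failed with only 6 arrays, 4 after quantile normalization, 3 after median centring, 4 with a variance trend, and 0 with robust variances, array weights, dim loci left out, TOC1 or CCA1. Without wild type replicate 2 or BRI1 line replicate 3, 14 of them failed. None changed sign. Leaving out 1 array turned the sign of the median of 14 of the 34 gene lists. The causes were not tested. The number of arrays limits what could be called: in the fit without covariates, the smallest change called was 0.43.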

Other observations

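SAG29 and PYL5, chosen after their values were seen, belong to no gene list used here and passed with TOC1 in the model in all 9 fits without 1 array, but not in the model without it. SAG29, a sugar transporter gene of senescing leaves, read 6.72, 6.19 and 5.74 in wild type and 8.17, 6.97 and 7.60 in the BRI1 line, a change of 1.36 (limma adjusted p = 0.455), or 1.28 with TOC1 in the model (limma adjusted p = 0.000685). PYL5, an abscisic acid receptor gene, read 7.91, 7.55 and 7.37 against 7.08, 6.79 and 6.97, a change of -0.66 (limma adjusted p = 0.229), or -0.69 with TOC1 in the model (limma adjusted p = 0.00492). In both genes the groups did not overlap, as at 10.1% of all loci. On the arrays labelled 35S::AVP1, against the same wild type arrays, PYL5 was called lower (-1.06), and SAG29 was not called (-0.13).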
